A study of Mus musculus with 15 samples.

Results

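The matricellular proteins described here are 10 mouse genes picked by name: Postn, Tnc, Thbs1, Thbs2, Thbs3, Thbs4, Sparc, Sparcl1, Fn1 and Cthrc1. They are 10 of the 39331 genes of the deposited count table, and all 10 passed the filter on low counts that left 16437 genes for testing. The study sequenced polyadenylated RNA of the left ventricles of C57BL/6 mice after an experimental myocardial infarction, and its title asks whether adult T cells impair the regeneration of neonatal hearts. There were 4 groups, all infarcted: adult hearts given adult T cells (AH_T, libraries AH_T1 to AH_T4, n = 4), adult controls (AH_C, AH_C5 to AH_C7, n = 3), neonatal hearts given adult T cells (NH_T, NH_T1, NH_T2, NH_T4 and NH_T5, n = 4) and neonatal controls (NH_C, NH_C6 to NH_C9, n = 4). For the neonatal hearts the labels give a time of 36 h after infarction and call the controls untreated. For the adult hearts they give no time, and they give neither ages in days nor the number of T cells. No heart without an infarct was part of the comparison, so a level here is a level in injured tissue. Nothing in the labels says that each library came from a separate animal, so the p-values measure only the spread between these libraries, which may be technical.

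Matricellular proteins are secreted into the extracellular matrix, where they act less as scaffolding than as signals: they bind integrins and other receptors, growth factors, proteases and collagen, and so change how cells attach, migrate and build matrix. In the uninjured adult heart most of them are scarce, and after an infarct fibroblasts and other cells of the wound make them. Periostin (Postn) is the classic product of activated cardiac fibroblasts. Tenascin C (Tnc) loosens cell attachment at the edge of an infarct. Thrombospondin 1 (Thbs1) activates latent TGF-beta, and the family has 4 members here. SPARC helps procollagen mature and SPARC-like 1 (Sparcl1, hevin) is its relative. Fibronectin (Fn1) forms the provisional matrix of a wound, and Cthrc1 is a secreted glycoprotein of matrix-producing fibroblasts.

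Promoter windows were available in the RefSeq table (GRCm38.p6, 250 bases before to 50 bases after a transcript start, 300 bases in all) for 6 of the 10 genes, namely Postn, Tnc, Thbs2, Thbs3, Thbs4 and Sparc. Of these, 4 windows are shown because their genes behaved differently between adult and neonatal hearts. Tnc was called lower in adults in both comparisons of ages. Postn was called lower in the comparison of recipients and not in that of controls. Thbs3 was called higher in both, and Thbs2 passed in neither. Postn and Tnc have 2 windows each in the table, and 1 of each is shown. Each is written 5′ to 3′ on the strand of its gene. Capitals mark the TATA box (TATAAA), the CCAAT box and the GC box (GGGCGG), searched on both strands, and a match on the other strand is written as its reverse complement.
Postn, chr3:54360857-54361156, plus strand: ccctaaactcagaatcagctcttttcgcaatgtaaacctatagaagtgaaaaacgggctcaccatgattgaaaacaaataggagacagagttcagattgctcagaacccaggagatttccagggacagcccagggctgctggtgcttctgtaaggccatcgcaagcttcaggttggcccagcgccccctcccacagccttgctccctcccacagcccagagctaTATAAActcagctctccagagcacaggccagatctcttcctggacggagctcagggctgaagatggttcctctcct
Tnc, chr4:64046966-64047265, minus strand: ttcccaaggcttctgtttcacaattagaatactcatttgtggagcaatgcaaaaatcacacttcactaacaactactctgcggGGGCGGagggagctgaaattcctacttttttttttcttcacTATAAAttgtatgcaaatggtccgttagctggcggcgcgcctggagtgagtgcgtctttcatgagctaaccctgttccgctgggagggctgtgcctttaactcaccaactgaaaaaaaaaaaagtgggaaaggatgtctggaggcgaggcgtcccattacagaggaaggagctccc
Thbs2, chr17:14694213-14694512, minus strand: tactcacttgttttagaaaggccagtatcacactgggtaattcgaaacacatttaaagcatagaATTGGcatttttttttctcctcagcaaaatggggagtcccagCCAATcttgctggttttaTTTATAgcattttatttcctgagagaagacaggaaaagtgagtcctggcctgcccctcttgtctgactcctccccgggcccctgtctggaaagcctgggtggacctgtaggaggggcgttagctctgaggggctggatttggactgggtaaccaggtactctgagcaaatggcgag
Thbs3, chr3:89214930-89215229, plus strand: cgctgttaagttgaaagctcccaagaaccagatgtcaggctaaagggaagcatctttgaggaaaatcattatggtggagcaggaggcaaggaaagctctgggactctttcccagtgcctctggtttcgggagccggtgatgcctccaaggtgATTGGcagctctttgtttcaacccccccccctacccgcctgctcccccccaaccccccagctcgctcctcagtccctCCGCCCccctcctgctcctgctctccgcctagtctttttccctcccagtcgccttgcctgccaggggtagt
TATAAA stood in the Postn, Tnc and Thbs2 windows shown and in 13.6% of all 32851 windows of the table. Counted from the transcript start, it lay at -26 in Postn and -126 in Tnc, and at -126 on the other strand in Thbs2. CCAAT stood in the Thbs2 and Thbs3 windows shown and in 37.4% of all windows. The Postn window not shown, at the start of the annotated gene, held a CCAAT box and no TATA box. The GC box stood in the Tnc and Thbs3 windows shown and in 35.7% of all windows. TGACTCA, the AP-1 motif, was searched as well and was in none of the 8 windows of the 6 genes, against 5.20% of all windows. CATTCC, the MCAT motif of TEAD factors, was in the Thbs4 window, as 2 overlapping copies, and in 14.7% of all windows. A match here describes letters in a window and is not a measured binding site.

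The 15 libraries held between 21871617 and 34302786 assigned counts. Levels are given as CPM, the counts of a gene relative to the total of its library, with TMM scaling, edgeR's correction for library composition, and levels of different genes are compared only after division by transcript length in kilobases. All groups expressed cardiomyocyte and fibroblast markers, which do not by themselves show an infarct. The 8 cardiomyocyte markers summed to 62435 to 70098 CPM in AH_T and 52150 to 54305 CPM in AH_C. They summed to 40503 to 49517 CPM in NH_T and 43726 to 48253 CPM in NH_C. The 9 fibroblast markers summed to 4803 to 6731, 4088 to 6142, 6031 to 6722 and 4158 to 6625 CPM in the same groups. The 4 measured T cell markers were low in every library, at a summed 2.44 to 4.05 CPM in AH_T, 1.54 to 2.54 CPM in AH_C, 1.24 to 2.74 CPM in NH_T and 1.28 to 2.84 CPM in NH_C. In such bulk tissue, fewer cells of a type and less RNA per cell cannot be told apart.

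Per kilobase of transcript, Sparc was the most abundant of the 10 genes in every group and Postn came second. Sparc reached 986 ± 105 CPM per kb in AH_T, 816 ± 80.4 in AH_C, 904 ± 60.2 in NH_T and 855 ± 109 in NH_C (SD, n = 4, 3, 4 and 4). Postn reached 292 ± 50.1 CPM per kb in AH_T, 296 ± 59.8 in AH_C, 398 ± 38.7 in NH_T and 376 ± 35.6 in NH_C. The third place differed between the ages. It was held by Sparcl1 in both adult groups, at 185 and 171 CPM per kb, and by Fn1 in both neonatal groups, at 120.2 and 113 CPM per kb. The lowest mean per kilobase belonged to Tnc in both adult groups (5.44 CPM per kb in AH_T and 4.21 in AH_C) and to Thbs3 in both neonatal groups (6.73 in NH_T and 6.85 in NH_C).

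Part of the 10 matricellular genes passed the test between adult and neonatal hearts, in opposite directions for different genes. The labels give 36 h after infarction for neonatal hearts and no time for adult hearts. Age and time after infarction can therefore not be told apart in these comparisons. Among the T cell recipients, 7 of the 10 genes passed the test between adult and neonatal hearts: Fn1, Tnc, Thbs1, Postn and Cthrc1 were lower in adults, and Thbs3 and Sparcl1 were higher. Among the controls, 4 passed: Fn1 and Tnc were lower in adults, and Thbs3 and Sparcl1 were higher. Tnc was 3.18-fold lower in adult recipients and 3.84-fold lower in adult controls, and Sparcl1 was 1.83-fold and 1.67-fold higher. Over all genes tested, 23.8% were called higher and 26.9% lower in adult than in neonatal recipients. In controls 15.6% were called higher and 15.4% lower. The 2 of 10 genes called higher in recipients, and the 2 higher and 2 lower in controls, are near these shares. The 5 of 10 called lower in recipients are above the 26.9%, in a comparison in which a large share of the transcriptome also differed. Scaling by library totals in place of TMM made most calls over all genes lower, with 2279 genes higher and 6853 lower in adult recipients (3919 and 4420 with TMM) and 1413 higher and 5152 lower in adult controls (2559 and 2526 with TMM). The same 7 of the 10 genes were called in recipients with library totals, and Postn joined the 4 of controls (-0.51, edgeR adjusted p = 0.0170). The median log2 difference over the 10 genes was -0.31 in recipients and -0.22 in controls, against -0.03 and -0.02 over all genes. The age comparison in recipients and that in controls use no library in common, although they share the estimate of spread.

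**Figure D1:**
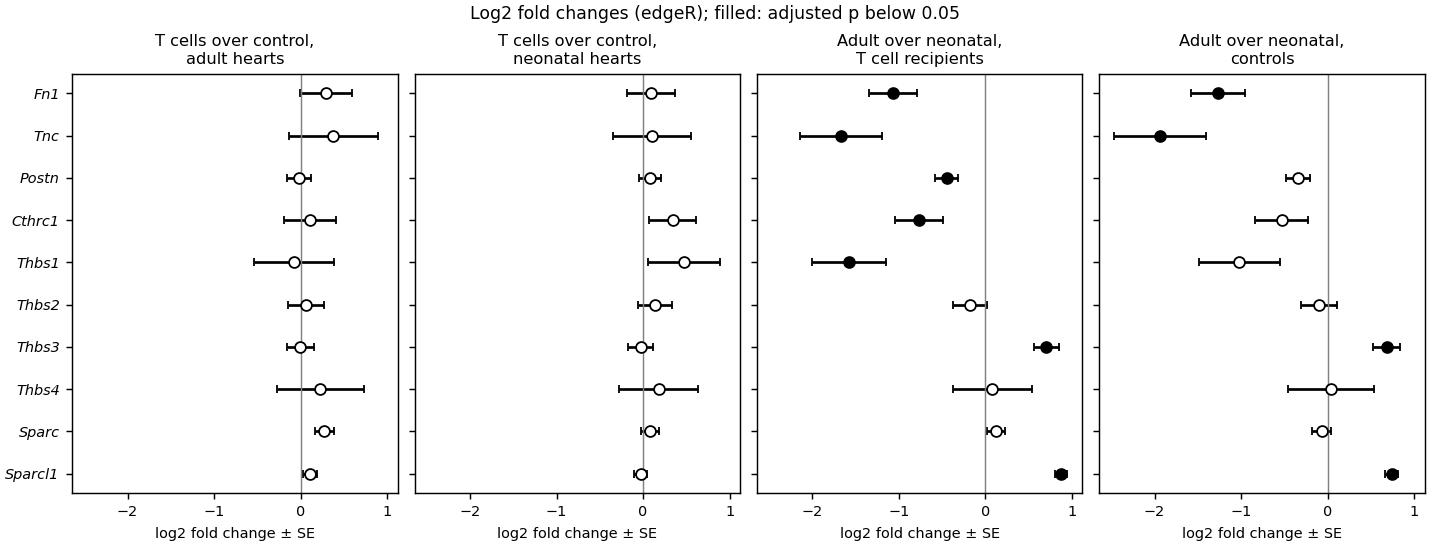
Log2 fold change with its standard error (horizontal bars) for each gene, in 4 comparisons; filled points have an edgeR adjusted p below 0.05. No point is filled in the 2 panels on T cells, while 7 are filled between ages in recipients and 4 in controls.

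Fn1, the fibronectin of the provisional wound matrix, showed the pattern at a high level. It measured 510, 310, 407 and 685 CPM in the 4 AH_T libraries and 351, 296 and 519 CPM in the 3 AH_C libraries. It measured 1108, 990, 1071 and 829 CPM in the 4 NH_T libraries and 1017, 1169, 529 and 1037 CPM in the 4 NH_C libraries. No adult library reached the lowest neonatal library of its own treatment, although NH_C8, at 529 CPM, came close to AH_C7 at 519 CPM. The log2 difference of adults from neonates was -1.06 ± 0.28 in recipients (SE, edgeR adjusted p = 0.00671) and -1.27 ± 0.31 in controls (adjusted p = 0.00824). Both calls held when any single library was left out. Across 15332 genes, fold changes between ages had a Spearman rho with transcript length of -0.26 in recipients and -0.05 in controls. With this length trend removed, Fn1 stood at -0.76 in recipients (edgeR adjusted p = 0.0329) and -1.18 in controls (adjusted p = 0.00936).

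Tnc, the tenascin of wound borders, had the largest difference of the 10 genes in both comparisons of ages. It measured 45.5, 18.4, 20.7 and 70.0 CPM in AH_T and 30.0, 16.3 and 43.4 CPM in AH_C, against 143, 109, 129.5 and 112 CPM in NH_T and 134, 149, 49.6 and 126 CPM in NH_C. Adult and neonatal libraries did not overlap within either treatment, but within AH_T the highest library was 3.81 times the lowest. The log2 difference was -1.67 ± 0.47 in recipients (SE, edgeR adjusted p = 0.0113) and -1.94 ± 0.53 in controls (adjusted p = 0.0164). The call in controls was lost without AH_C5 (-1.94, adjusted p = 0.0560) and without AH_C6 (-1.65, adjusted p = 0.0609). With the length trend removed, Tnc stood at -1.40 in recipients (edgeR adjusted p = 0.0261) and -1.86 in controls (adjusted p = 0.0178).

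**Figure D2:**
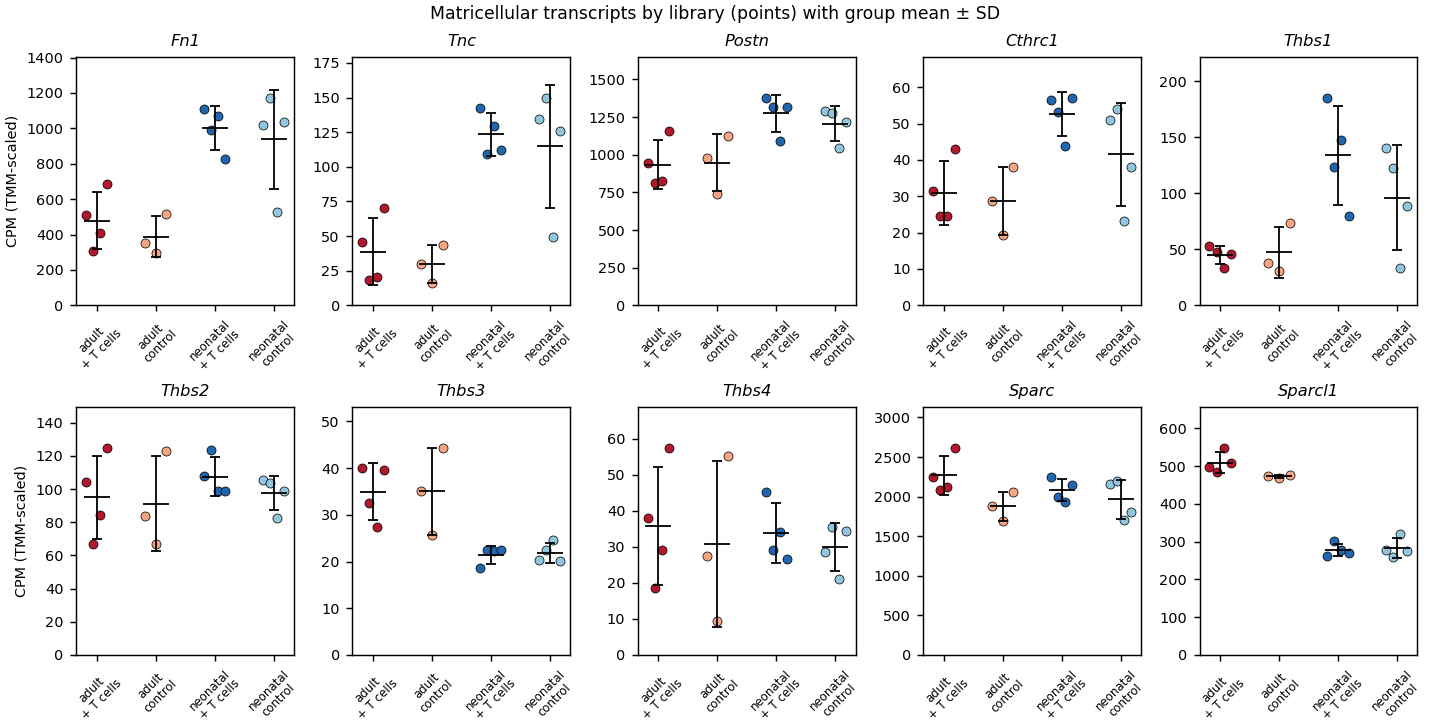
TMM-scaled CPM of each gene in each of the 15 libraries (points), with the group mean and SD (bars); every axis starts at 0. Fn1, Tnc and Thbs1 sit higher in most neonatal libraries, Thbs3 and Sparcl1 sit higher in every adult library, and the remaining genes overlap between at least 2 of the groups of different age.

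The thrombospondins split. Thbs1, the activator of latent TGF-beta, measured 52.7, 47.5, 33.4 and 45.7 CPM in AH_T, against 184, 124, 147 and 79.4 CPM in NH_T. All adult recipients were below all neonatal recipients, with a log2 difference of -1.58 ± 0.43 (SE, edgeR adjusted p = 0.00965). With the length trend removed, Thbs1 stood at -1.35 there (edgeR adjusted p = 0.0201). In controls it measured 37.7, 31.0 and 73.0 CPM in adults and 140.1, 123, 33.2 and 88.6 CPM in neonates, and these overlapped because NH_C8 was as low as the adult libraries. The difference in controls was -1.02 ± 0.47 with an edgeR adjusted p of 0.121, and without NH_C8 it was -1.31 with an adjusted p of 0.0187.

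Thbs3, a pentameric thrombospondin without the TGF-beta activating sequence of Thbs1, ran the other way. It measured 40.1, 32.6, 27.4 and 39.7 CPM in AH_T and 35.1, 25.7 and 44.3 CPM in AH_C, against 18.6, 22.5, 22.4 and 22.4 CPM in NH_T and 20.3, 22.5, 24.6 and 20.02 CPM in NH_C. Each of the 7 adult libraries was above each of the 8 neonatal libraries. The log2 difference was 0.71 ± 0.15 in recipients (SE, edgeR adjusted p = 0.000729) and 0.68 ± 0.16 in controls (adjusted p = 0.0035), and neither call was lost when any single library was left out.

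Thbs2, a trimeric thrombospondin like Thbs1 and an inhibitor of angiogenesis, averaged 95.1 ± 25.1 CPM in AH_T, 91.2 ± 28.6 in AH_C, 107 ± 11.7 in NH_T and 97.6 ± 10.3 in NH_C (SD). Its age differences of -0.18 ± 0.20 in recipients and -0.10 ± 0.21 in controls did not pass the test (edgeR adjusted p = 0.483 and 0.763). Thbs4, a pentameric family member best known from tendon and from the stressed heart, varied most of the 10 genes among adult controls. It measured 38.0, 18.5, 29.1 and 57.4 CPM in AH_T and 27.5, 9.39 and 55.1 CPM in AH_C, against 45.2, 29.2, 34.1 and 26.7 CPM in NH_T and 28.6, 35.6, 21 and 34.4 CPM in NH_C. The AH_C libraries spanned a 5.87-fold range that contained every neonatal library, and the log2 difference between ages was 0.08 ± 0.46 in recipients and 0.04 ± 0.50 in controls. The summed valve and tendon markers, 5 genes, shared the lowest and highest library of Thbs4 in both control groups, but not among recipients. They ran from 17.2 CPM in AH_C6 to 68.2 in AH_C7 and from 12.5 in NH_C8 to 18.7 in NH_C7. In recipients they ran from 36.8 CPM in AH_T3 to 56.6 in AH_T1 and from 12.2 in NH_T2 to 21.3 in NH_T5. As a mean log2 deviation over the 5 markers, AH_T4 was the lowest adult recipient and NH_C6 the highest neonatal control. All 5 of these markers were called higher in adult than in neonatal recipients, and 2 of 5 in controls, or 3 without NH_T4 or AH_T2 in recipients and 1 without NH_C9 or AH_C7 in controls. Their part in the Thbs4 values was not tested.

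**Figure D3:**
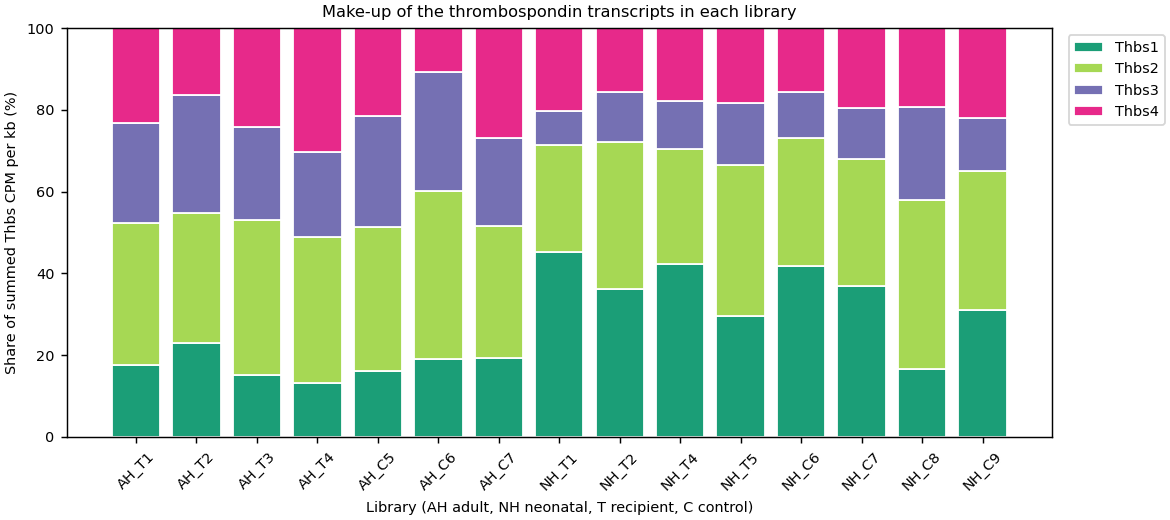
Share of each thrombospondin in the summed thrombospondin CPM per kb, in each of the 15 libraries; bars add up to 100%. The share of Thbs1 lies at 13.2 to 22.9% in the 7 adult libraries and at 29.7 to 45.2% in the neonatal libraries other than NH_C8, which lies at 16.7%.

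Per kilobase, the 4 thrombospondins summed to 45.9 ± 11.3 CPM per kb in AH_T, 44.1 ± 18.7 in AH_C, 58.4 ± 9.87 in NH_T and 49.2 ± 10.8 in NH_C (SD), with ranges that overlapped. The make-up of that sum differed in most libraries. Thbs1 took 17.2 ± 4.2% of it in AH_T, 18.2 ± 1.87% in AH_C, 38.3 ± 6.87% in NH_T and 31.6 ± 10.9% in NH_C. Thbs3 took 24.3 ± 3.37%, 26.0 ± 3.95%, 11.9 ± 2.85% and 14.8 ± 5.32% in the same groups. Thbs1 over Thbs3 stood at 0.63 to 0.79 in AH_T and 0.59 to 0.90 in AH_C, against 1.93 to 5.40 in NH_T and 0.74 to 3.77 in NH_C, where NH_C8 gave the 0.74. These shares are built from the values above and carry no test of their own.

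The SPARC pair also came apart between adult and neonatal hearts. Sparcl1, the hevin relative of SPARC that is abundant in vessels, measured 497, 484, 548 and 508 CPM in AH_T and 474, 468 and 476 CPM in AH_C. It measured 263, 300.4, 279 and 269 CPM in NH_T and 277, 261, 321 and 275 CPM in NH_C. Within each group it had the smallest coefficient of variation of the 10 genes, and every adult library stood above every neonatal one, with a log2 difference of 0.87 ± 0.07 in recipients (SE, edgeR adjusted p = 1.04e-07) and 0.74 ± 0.08 in controls (adjusted p = 3.66e-06). The 7 endothelial markers moved alongside: they summed to 1398 to 1588 CPM in AH_T, 1395 to 1443 CPM in AH_C, 972 to 1090 CPM in NH_T and 1019 to 1091 CPM in NH_C, and 5 of 7 were called higher in adults in both comparisons. Of 7 mural markers, 3 were called higher and 2 lower in adult recipients, and 3 higher and 3 lower in adult controls. Of 9 fibroblast markers, 4 were called higher and 1 lower in recipients, and 3 higher and 1 lower in controls. Over all genes, 23.8% were called higher and 26.9% lower in recipients, and 15.6% and 15.4% in controls. The part of these cell types in the Sparcl1 values was not tested.

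Sparc itself, the collagen-binding glycoprotein, measured 2248, 2083, 2124 and 2614 CPM in AH_T and 1885, 1689 and 2058 CPM in AH_C, against 2243, 1996, 1938 and 2142 CPM in NH_T and 2162, 2195, 1699 and 1809 CPM in NH_C. Ages overlapped in both treatments. The log2 difference was 0.12 ± 0.10 in recipients (SE, edgeR adjusted p = 0.319) and -0.07 ± 0.11 in controls (adjusted p = 0.683), and that in recipients turned to -0.07 when libraries were scaled by their totals. Per kilobase, Sparc exceeded Sparcl1 by 4.65 to 6.17 times in AH_T and 4.33 to 5.18 times in AH_C, against 7.97 to 10.2 times in NH_T and 6.34 to 10.1 times in NH_C.

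Before removal of the length trend, Postn and Cthrc1, the products of activated, matrix-producing fibroblasts, had smaller differences between ages than Fn1 or Tnc. This ranking was not tested. Postn measured 943, 811, 825 and 1158 CPM in AH_T and 979, 742 and 1122 CPM in AH_C, against 1373, 1317, 1093 and 1316 CPM in NH_T and 1290.4, 1275, 1041 and 1218 CPM in NH_C. AH_T4 and AH_C7 reached into the neonatal range. The log2 difference was -0.45 ± 0.13 in recipients (SE, edgeR adjusted p = 0.00730) and -0.35 ± 0.14 in controls (adjusted p = 0.0662). The Postn call in recipients was lost once a trend of fold change with transcript length was removed (-0.26, adjusted p = 0.113), while controls passed without AH_C7 (-0.49, adjusted p = 0.0253), without NH_C8 (-0.41, adjusted p = 0.0335) or without AH_T4 (adjusted p = 0.0406), and with DESeq2 (-0.34, adjusted p = 0.0473).

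Cthrc1 measured 31.3, 24.4, 24.7 and 43.0 CPM in AH_T, against 56.5, 53.3, 43.8 and 56.9 CPM in NH_T. The groups of recipients did not overlap, by a margin of less than 1 CPM between AH_T4 and NH_T4. In controls Cthrc1 measured 28.7, 19.5 and 38.0 CPM in adults and 51.1, 53.9, 23.1 and 38.0 CPM in neonates, which overlapped. The log2 difference was -0.77 ± 0.28 in recipients (SE, edgeR adjusted p = 0.0359) and -0.53 ± 0.30 in controls (adjusted p = 0.209). With the length trend removed, Cthrc1 stood at -0.86 in recipients (edgeR adjusted p = 0.0151), where Fn1 stood at -0.76, and at -0.48 in controls (adjusted p = 0.216). The call in recipients was lost without any one of AH_T1, AH_T2, AH_T3, NH_T1, NH_T2 or NH_T5 (adjusted p from 0.0661 to 0.0927) and with no filter on low counts (0.0756), and in controls it was made without NH_C8 (-0.73, adjusted p = 0.0432).

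Counted by library rather than by test, 6 of the 10 genes had no overlap between adult and neonatal recipients, against 45.4% of all genes tested, and 4 of 10 had none between adult and neonatal controls, against 34.6% of all genes. The 6 were Fn1, Tnc, Thbs1, Cthrc1, Thbs3 and Sparcl1, and the 4 were Fn1, Tnc, Thbs3 and Sparcl1. Macrophage markers, from cells that can themselves make fibronectin and thrombospondin 1, differed strongly between ages: 7 genes summed to 162 to 223 CPM in AH_T, 166 to 231 CPM in AH_C, 555 to 846 CPM in NH_T and 197 to 661 CPM in NH_C. All 7 were called lower in adult than in neonatal recipients and 4 of 7 in controls, or 7 of 7 there without NH_C8. Platelet markers, from another source of thrombospondin 1, summed to 15.6 to 19.9 CPM in AH_T and 13.7 to 16.6 CPM in AH_C. They summed to 24.7 to 47.2 CPM in NH_T and 18.2 to 36.6 CPM in NH_C. Of the 5, 2 were called lower in adults in both comparisons, Pf4 and Ppbp. Pf4 averaged 8.28 CPM in AH_T and 6.52 in AH_C, against 23.0 in NH_T and 18.4 in NH_C. Itga2b, Gp9 and Gp1bb were not called. Itga2b averaged 2.98 and 3.18 CPM in AH_T and AH_C, against 3.32 and 2.91 in NH_T and NH_C. Gp1bb averaged 5.78 and 4.57 CPM, against 4.96 and 4.88. The part of either cell type in the lower Fn1, Tnc and Thbs1 of adult hearts was not tested.

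T cell recipients were compared with controls within each age. In adult hearts none of the 10 genes passed the edgeR test at an adjusted p below 0.05, in a comparison in which 8.55% of all genes tested did. At an unadjusted p below 0.05 there was 1 of 10, Sparc, against 27.3% of all genes. DESeq2 called the same gene, against 14.1% of all genes, and limma voom called none, against 6.72%. In neonatal hearts none of the 10 passed either, against 0.0% of all genes, and none had an unadjusted p below 0.05, against 3.12% of all genes, or a call from DESeq2 or limma voom, which called no gene at all. The median log2 difference over the 10 genes was 0.11 in adult hearts, with 7 of 10 positive, and 0.10 in neonatal hearts, with 8 of 10 positive, against 0.00 over all genes in both.

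In adult hearts Sparc was the gene nearest to a call. All 4 recipients, at 2083 to 2614 CPM, were above all 3 controls, at 1689 to 2058 CPM. The log2 difference was 0.27 ± 0.11 (SE) with an edgeR adjusted p of 0.118, and DESeq2 gave 0.28 with an adjusted p of 0.0445. Sparcl1 also had no overlap, at 484 to 548 CPM in AH_T and 468 to 476 CPM in AH_C, with a log2 difference of 0.11 ± 0.08. These 2 of 10 genes without overlap compare with 25.1% of all genes tested. The adult comparison as a whole depended on single libraries: its 1406 calls became 0 without AH_T4, without AH_C5 or without AH_C6, and 0 with the length trend removed, where Sparc stood at 0.21 with an edgeR adjusted p of 0.222. Fold changes of all genes between adult recipients and controls ran with transcript length, at a Spearman rho of -0.45 across 15332 genes, which are not independent replicates. Of 8 cardiomyocyte markers, 3 (Actc1, Myl2 and Myl3) were called higher in adult recipients than in adult controls. All 3 calls were lost without any one of NH_T4, AH_T2, AH_T3, AH_T4, AH_C5, AH_C6 or AH_C7. Each was also lost without at least 1 other library.

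The other 8 genes differed by less than their SE between adult recipients and controls. Tnc stood at 38.7 ± 24.2 CPM in AH_T and 29.9 ± 13.5 CPM in AH_C (SD, n = 4 and 3), a log2 difference of 0.38 ± 0.51 (SE). Fn1 stood at 478 ± 160.4 CPM in AH_T and 389 ± 116 CPM in AH_C, a difference of 0.30 ± 0.30. Thbs4 gave 0.22 ± 0.50. Postn, at 934 ± 160.4 CPM in AH_T and 948 ± 192 CPM in AH_C, gave -0.02 ± 0.14, and Thbs3 gave 0.00 ± 0.16.

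In neonatal hearts the widest differences were those of Thbs1 and Cthrc1. Thbs1 averaged 134 ± 44.0 CPM in NH_T and 96.1 ± 47.1 CPM in NH_C (SD, n = 4 each), a log2 difference of 0.48 ± 0.42 (SE, edgeR adjusted p = 0.999). Cthrc1 averaged 52.6 ± 6.08 CPM in NH_T and 41.5 ± 14.1 CPM in NH_C, a difference of 0.34 ± 0.27 (adjusted p = 0.999). Neonatal recipients and neonatal controls overlapped for all 10 genes, while 1.36% of all genes tested had no overlap. NH_C8 carried much of these differences: without it Thbs1 gave 0.18 and Cthrc1 0.14, and Fn1 and Tnc gave -0.11 and -0.16 in place of 0.09 and 0.10.

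The effect of T cells was also compared between ages, as the adult effect minus the neonatal effect. None of the 10 genes passed the edgeR test, against 0.0% of all genes tested, none had an unadjusted p below 0.05, against 15.3% of all genes, and DESeq2, which called 1.06% of all genes, and limma voom, which called no gene, called none of them. The largest values were -0.55 ± 0.62 for Thbs1 and 0.27 ± 0.68 for Tnc (SE), and the best determined was 0.14 ± 0.11 for Sparcl1. With SEs of 0.62 to 0.68, differences of that size could not be detected for Thbs1, Tnc and Thbs4.

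Within a group the 10 genes tended to be high or low in the same libraries. AH_C6 was the lowest and AH_C7 the highest of the 3 adult controls for all 10 genes, whereas these libraries were lowest and highest for 35.8% and 37.2% of all genes. AH_T4 was the highest adult recipient for 7 of the 10, against 26.8% of all genes, and AH_T2 was the lowest for 8, against 25.1%. NH_C8 was the lowest neonatal control for 8 of the 10, against 30.5% of all genes, and the highest for the other 2, Thbs3 and Sparcl1. The summed fibroblast markers were also lowest in AH_C6 (4088 CPM) and NH_C8 (4158 CPM) and highest in AH_C7 (6142 CPM) and AH_T4 (6731 CPM). Among adult recipients they were lowest in AH_T3 (4803 CPM) and not in AH_T2. As a mean log2 deviation over the 9 markers, AH_T2 was the lowest adult recipient and NH_C9 the lowest neonatal control. The 9 markers of activated fibroblasts, by the same measure, were lowest in AH_T2, AH_C6 and NH_C8 and highest in AH_T4 and AH_C7. As sums these were lowest in AH_T3 among adult recipients and highest in AH_C5 among adult controls. The macrophage markers of NH_C8, at 197 CPM, were the lowest of its group. Their part in the spread of the 10 genes was not tested.

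**Figure D4:**
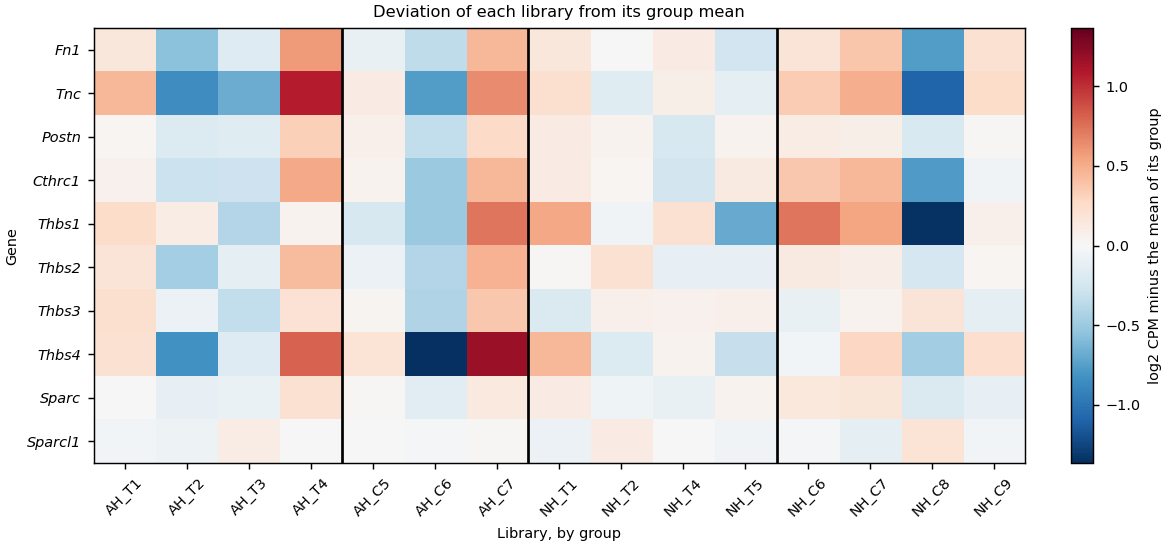
Log2 CPM of each gene in each library minus the mean of its group (colour; red above, blue below; vertical lines part the groups). AH_C6 and NH_C8 are mostly blue and AH_C7 and AH_T4 mostly red, with Tnc, Thbs1 and Thbs4 the widest rows.

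The likeness of genes across the 15 libraries was measured as the root mean square (RMS) difference of log2 CPM after centring each gene on its own mean. Among the 10, Postn and Thbs2 were nearest to each other (RMS 0.18), and so were Thbs3 and Sparcl1 (0.22). Tnc and Thbs1 were nearest to Fn1 (0.46 and 0.41), and Tnc and Sparcl1 were the farthest apart (1.49). Of 11134 other genes with a mean of at least 5 CPM, Sulf2 and Fstl1 were nearest to Postn (0.09 each, against 0.27 for the spread of Postn itself). Bgn and Col1a2, a matrix proteoglycan and a chain of type I collagen, were nearest to Cthrc1 (0.14 each, against 0.51). Col6a3 and Clip3 were nearest to Thbs2 (0.11 and 0.12, against 0.28). Clu and Gpr176 were nearest to Tnc (0.28 each, against 1.12), and Ptk2b and Actn1 to Fn1 (0.20 and 0.21, against 0.69). Mmp19 and Cfp were nearest to Thbs1 (0.25 and 0.30, against 0.85). Gas1 and Tubb4a were nearest to Thbs3 (0.11 and 0.13, against 0.39). Ext2 and Nucb1 were nearest to Sparc (0.05 and 0.06, against 0.16). Thbs4 had the poorest neighbours, Col9a2 and Ahnak2, at 0.33 and 0.35 against its own 0.62.

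Companion genes of the matricellular proteins were read from 6 lists, chosen with earlier results of these data known, and their counts stand against 23.8% of all genes called higher and 26.9% lower in adult recipients, and 15.6% higher and 15.4% lower in adult controls. Of 21 other matricellular genes tested, 5 were called higher and 7 lower in adult than in neonatal recipients, and 4 higher and 6 lower in controls, so that the 5 in recipients are at the share of all genes called higher. Smoc2, a modular relative of SPARC, was 57.9 ± 5.38 CPM in AH_T against 29.3 ± 3.31 in NH_T, and 56.8 ± 5.87 in AH_C against 28.7 ± 4.49 in NH_C (SD), with log2 differences of 0.98 and 0.99 (edgeR adjusted p = 1.39e-06 and 8.92e-06). Ccn4, a CCN family protein downstream of Wnt, was lower in adults by log2 differences of -0.94 in recipients and -0.61 in controls (adjusted p = 1.75e-05 and 0.00355). Smoc1 was lower in adults by -0.62 in recipients and -0.92 in controls (edgeR adjusted p = 0.0181 and 0.00549). The tenascin Tnxb was higher by 0.82 and 0.68 (adjusted p = 0.000539 and 0.00724). Osteopontin (Spp1), named after its value was seen, lay farthest out, at -5.45 in recipients and -4.49 in controls.

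Of 20 receptors of matricellular proteins tested, 2 were called higher and 9 lower in adult recipients than in neonatal ones, and 2 higher and 7 lower in controls, against 26.9% and 15.4% of all genes called lower. The integrin subunits Itgav and Itgb1 bind fibronectin, tenascin C and periostin as parts of several dimers. Itgav was 19.8 ± 1.06 CPM in AH_T against 49.9 ± 8.69 in NH_T and 22.7 ± 1.62 in AH_C against 43.4 ± 9.33 in NH_C (SD), with log2 differences of -1.34 and -0.94 (edgeR adjusted p = 1.62e-06 and 0.000297). Itgb1 was lower in adults by -0.46 in recipients and -0.45 in controls (edgeR adjusted p = 3.75e-05 and 0.000282). Itga2, a collagen receptor subunit, was lower by -1.22 and -0.82 (adjusted p = 4.07e-06 and 0.000914). Itgb6, the epithelial partner of Itgav, was higher in adults by 2.60 in recipients and 1.94 in controls (adjusted p = 2.50e-07 and 1.31e-05). Without NH_C8 the count called lower in controls was 11 in place of 7, and without AH_T3 the count called higher in recipients was 1 in place of 2, or 4 with the length trend removed.

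**Figure D5:**
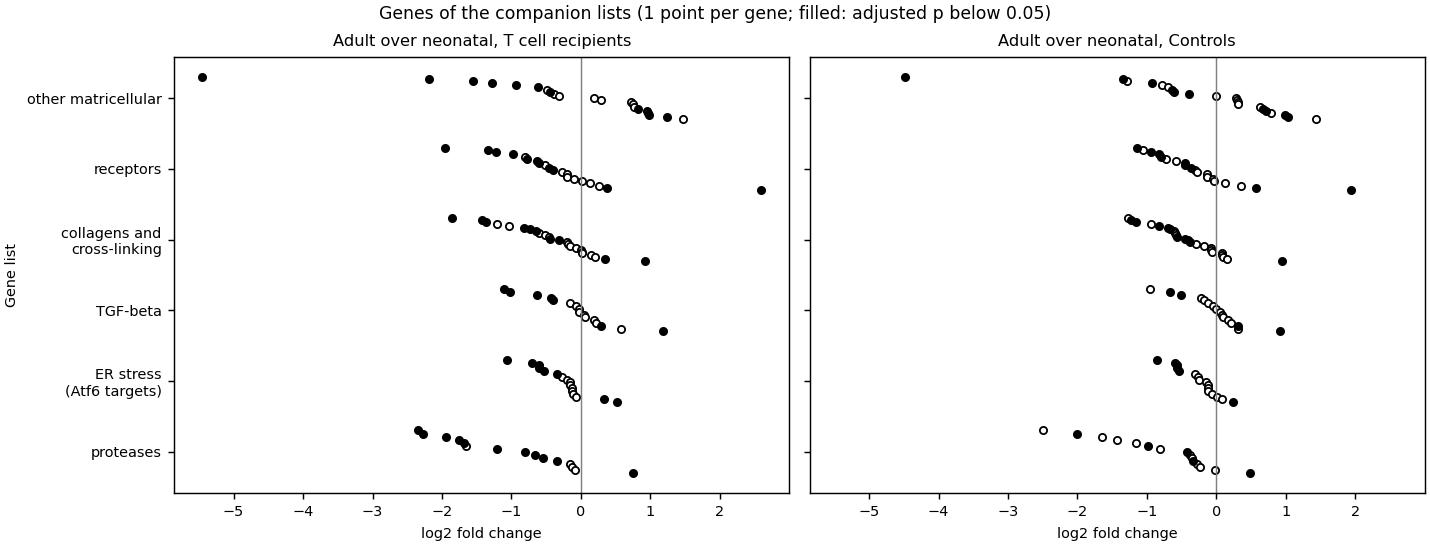
Log2 fold change of adult over neonatal hearts for each gene of the 6 companion lists (1 point per gene), in recipients and in controls; filled points have an edgeR adjusted p below 0.05. Receptors, collagens, endoplasmic reticulum genes and proteases lie mostly left of 0, and the other matricellular genes lie on both sides, with Spp1 farthest left.

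Of 24 collagens and cross-linking partners, 2 were called higher and 8 lower in adult recipients, and 1 higher and 8 lower in adult controls, against the same 26.9% and 15.4% called lower. The lysyl oxidase Loxl2 averaged 103 ± 2.88 CPM in AH_T against 278 ± 31.4 in NH_T and 107 ± 4.72 in AH_C against 252 ± 61.8 in NH_C (SD). Fbn2, the fetal fibrillin, was lower in adults by -0.82 in recipients and -0.57 in controls (edgeR adjusted p = 0.000125 and 0.00842). Loxl4 was lower by -1.85 and -0.83 (adjusted p = 1.90e-06 and 0.00869). Decorin (Dcn), a small proteoglycan that coats collagen, was higher in adults by 0.92 in recipients and 0.94 in controls (adjusted p = 2.51e-07 and 1.18e-06). The count called lower in controls was between 3 and 5 without any one of NH_C6, NH_C7, NH_C9, AH_C5 or AH_C6, and that in recipients was 4 with the length trend removed.

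In the TGF-beta list of 16 genes, which holds the growth factors that Thbs1 acts on, 2 were called higher and 5 lower in adult recipients, and 2 higher and 2 lower in adult controls, near the shares of all genes called lower (26.9% and 15.4%). Tgfb2, a ligand, was lower in adults by -0.63 in recipients and -0.66 in controls (edgeR adjusted p = 0.00104 and 0.00331). Tgfbr1, the type I receptor, was lower by -1.10 and -0.50 (adjusted p = 3.37e-07 and 0.0027), and Ltbp4, which binds latent TGF-beta in the matrix, was higher by 1.18 and 0.91 (adjusted p = 1.33e-07 and 1.07e-05). The count called lower in recipients was 3 without NH_T1, without AH_T2 or with the length trend removed.

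Thrombospondins are known in the mouse heart to engage Atf6 and the stress response of the endoplasmic reticulum, and 16 genes of that response were read. Of these, 2 were called higher and 6 lower in adult recipients, and 1 higher and 5 lower in adult controls, against 26.9% and 15.4% of all genes called lower. The chaperone Hsp90b1 was 296 ± 22.6 CPM in AH_T against 449 ± 45.2 in NH_T and 279.6 ± 8.7 in AH_C against 413 ± 63.6 in NH_C (SD). The disulfide isomerase Pdia4 was lower in adults by -0.71 in recipients and -0.60 in controls (edgeR adjusted p = 8.34e-05 and 0.00196). Pdia6 was lower by -0.53 and -0.57 (adjusted p = 0.00104 and 0.00273). Herpud1 was higher by 0.51 and 0.24 (adjusted p = 1.31e-05 and 0.0206). The count called lower in controls was 9 without NH_C8, and the 1 called higher was lost without NH_C6, NH_C7, NH_C9, AH_C5 or AH_C7.

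Of 15 proteases tested that cut matricellular or matrix proteins, 1 was called higher and 10 lower in adult recipients, and 1 higher and 4 lower in adult controls, against 26.9% and 15.4% of all genes called lower. Plau, the urokinase plasminogen activator, averaged 5.88 ± 1.48 CPM in AH_T against 22.7 ± 7.16 in NH_T and 4.66 ± 0.468 in AH_C against 18.8 ± 3.66 in NH_C (SD), with log2 differences of -1.94 and -2.01 (edgeR adjusted p = 6.98e-06 and 5.02e-05). Ctsb, a lysosomal protease abundant in macrophages, was lower by -1.21 and -0.98 (adjusted p = 0.000316 and 0.00586). Plat, the tissue plasminogen activator, was lower by -0.34 in recipients and -0.33 in controls (edgeR adjusted p = 0.00132 and 0.00668). Mmp2, a gelatinase made by fibroblasts, was higher in adults by 0.75 and 0.49 (adjusted p = 0.000174 and 0.0151). Without NH_C8 the count called lower in controls was 7, and without AH_C7 the 1 called higher was lost.

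Between T cell recipients and controls, 2 of the 111 different genes tested in the 6 lists were called, both in adult hearts, where 8.55% of all genes were called: Cacna2d1, a receptor of thrombospondins, at 55.9 ± 2.76 CPM in AH_T and 71.5 ± 10.1 CPM in AH_C (SD, edgeR adjusted p = 0.0315), and Tgfbr1, at 22.3 ± 1.15 CPM in AH_T and 29.9 ± 2.77 CPM in AH_C (adjusted p = 0.0326). Neither call held without AH_T1, AH_T2, AH_T4, AH_C5 or AH_C6, and that of Tgfbr1 was also lost without AH_T3. No gene of the lists was called in neonatal hearts or for the difference of the effects.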

How the data were processed

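Polyadenylated RNA of infarcted left ventricles was sequenced in 15 stranded libraries, per the labels' protocols. Per the submitters' processing notes, bcl2fastq 2.20.0.422, cutadapt 2.5, STAR 2.7.2b, featureCounts 1.6.4 and DESeq2 1.24.0 were used with GRCm38.p6. The authors deposited 1 table of unscaled expected counts per gene, in which 61.1% of non-zero values are whole; the strand setting and the rule for fractions are not given in the sources used here. Opposite-strand long non-coding genes overlap Postn, Tnc, Thbs3 and Sparcl1, and held at most 24 counts in any library. Groups came from the sample titles.

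Counts were rounded, genes were filtered with filterByExpr (minimum count 10, minimum total 15), libraries were scaled by TMM, and the 4 group means of all 15 libraries were estimated together with the robust quasi-likelihood test of edgeR 4.0.16 (R 4.3.3; limma 3.58.1, DESeq2 1.42.0 for alternatives). Tests were two-sided, with Benjamini-Hochberg adjustment over all 16437 genes tested and a threshold of 0.05. An SE is the size of the log2 fold change over the square root of F; log2 CPM used a prior count of 1. The fit was tested on simulated data in which only planted genes differed, with no length trend and no shared shifts of libraries. That test therefore does not cover these features of the data. Transcript length is that of the longest protein-coding transcript in GENCODE M21.

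The members and the lists were chosen with earlier results of these data known. All 10 members are named; from each companion list, up to 3 called genes per comparison with the smallest adjusted p; for likeness, the 2 nearest genes without predicted or clone names (those of Sparcl1 are not reported here). Alternatives were other size factors, library totals, no filter, DESeq2, limma voom, each library left out, libraries of 1 age only, a transcript length trend removed and a replicate block. Each of the 10 genes had at least 222 counts in every library.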

Additional observations from a re-analysis of the deposited data

Results flagged for a closer look

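Of 30 combinations of a gene and a group of 4 libraries, 1 held a library far from the other 3. Thbs3 in NH_T1 measured 18.6 CPM, against 22.4 CPM in the nearest of the other neonatal recipients. The gap took 0.965 of the range of the group, above the critical value of Dixon's test for 4 samples. Chance marks about 1 in 20 such groups, so 1 in 30 is no more than chance gives. The library was not low for the family as a whole: NH_T1 was the highest neonatal recipient for 6 of the 10 genes, and the lowest for Thbs3 and Sparcl1. Thbs3 remained higher in adult recipients without it, with the leave-one-out log2 differences between 0.63 and 0.81.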

How the results depend on the processing

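For single genes, 1078 of 1100 values under the alternatives kept their direction where called and their side of the threshold, 8 passed it only there and 14 no longer passed; sign changes of values called in neither fit count as kept. DESeq2 called 1 of the 10 genes between adult recipients and controls (Sparc) in place of 0. Leaving out 1 library at a time, 3 to 7 of the 10 were called between adult and neonatal controls, 7 of them without NH_C8. The labels do not say whether equal replicate numbers in the titles pair libraries of both ages. After group means were removed, libraries with the same number correlated at 0.072, 0.11 and -0.071 in recipients and at -0.061 and 0.31 in controls. AH_T1, AH_T2 and AH_C7 correlated best with their own number, and AH_T4 and AH_C6 with another. So few correlations cannot decide whether the numbers pair the libraries. With a replicate block, 4 of 10 genes were called between recipients of both ages (Fn1, Thbs1, Thbs3, Sparcl1) in place of 7, and 3 of 10 between controls, where the block called 46.3% and 23.1% of all genes. Scaling by library totals moved the median of all genes to -0.23 between ages in recipients and -0.18 in controls, so the differences with TMM are the ones relative to most genes. Between adult recipients and controls it gave 458 higher and 1034 lower in place of 580 and 826, and DESeq2 gave 1237 and 1087. DESeq2 called 174 genes for the difference of the T cell effects, where edgeR called 0 and 2511 had an unadjusted p below 0.05. With library totals more companion genes were called lower in adults: in recipients 14 receptors in place of 9 and 13 genes of the endoplasmic reticulum list in place of 6, and in controls 11 receptors, 5 genes of the TGF-beta list, 9 of the endoplasmic reticulum list and 7 proteases in place of 7, 2, 5 and 4. Without the filter on low counts 5 collagens and cross-linking partners were called lower in adult controls in place of 8. Removing the length trend made the splits between ages 4678 and 3085 in recipients and 3077 and 2107 in controls. The causes were not tested. With 3 or 4 libraries a group and SEs of up to 0.53 between groups, moderate differences of Tnc, Thbs1 and Thbs4 could not be detected.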

Other observations

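The ratio of Postn to Tnc, 2 products of the infarct stroma, differed in level between ages in most libraries. Per kilobase, Postn exceeded Tnc by 36.7 to 97.9 times in AH_T and 57.3 to 100.8 times in AH_C, against 18.7 to 26.8 times in NH_T and 18.9 to 46.5 times in NH_C. NH_C8 gave the 46.5, which is within the range of the adult recipients.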
